A study of Mus musculus with 10 samples.

Results

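The genes described are 10 that encode collagen-folding enzymes, collagen chaperones and procollagen-processing proteins: P4ha1, P4ha2, P4ha3, P4hb, P3h1, Crtap, Fkbp10, Serpinh1, Bmp1 and Pcolce. They were chosen by name, as 10 of 48471 genes to which deposited transcript counts could be assigned, and all 10 passed the filter on low counts, which kept 15378 genes. The counts come from RNA-seq of myofibroblastic cancer-associated fibroblasts (myCAFs), the contractile, matrix-producing fibroblasts of tumour stroma, flow-sorted from mouse pancreatic ductal adenocarcinoma (PDAC). All tumours had been grown by orthotopic transplantation of KPC T-LOH organoids, and the strain is given as C57BL/6J for every sample. The groups were the CD90- and the CD90+ fraction of the same tumours, with 5 libraries each and no other treatment, and no age is given in the sources used here. Sample titles name 11 animals in 5 pools, which hold 4, 1, 2, 3 and 1 animals, whereas the design text counts 5 male mice. The pool, here numbered 1 to 5, therefore pairs the fractions and is the unit of replication, and part of the pools mix several animals. What defined the myCAF gate apart from CD90 is not given in the sources used here.

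Collagen chains are modified and folded in the endoplasmic reticulum before export. Prolyl 4-hydroxylase, an enzyme of a catalytic alpha subunit (P4ha1, P4ha2 or P4ha3) and protein disulphide isomerase (P4hb), hydroxylates prolines and so makes the triple helix stable at body temperature. P3h1 and Crtap form a complex that 3-hydroxylates prolines, Fkbp10 is a prolyl isomerase of the same compartment, and Serpinh1 (HSP47) is a chaperone that binds the folded procollagen helix. Outside the cell Bmp1 cuts off the C-terminal propeptide of fibrillar procollagens, and Pcolce enhances that cut. Fibroblasts of the pancreatic tumour stroma are known as the main makers of its collagen.

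The libraries differed in more than the sorted protein. A library held 11.7 to 47.7 M estimated counts (M, mega), and its nuclear genes that code for protein 3.71 to 28.5 M. Thy1, which encodes CD90, stood at 8.47 ± 5.18 CPM (counts per 1000000, on the library total scaled by the trimmed mean of M values, TMM) in CD90- and 89.1 ± 29.5 CPM in CD90+ libraries (SD, n = 5), with no overlap. Mitochondrial rRNA took 59.3% ± 17.6 of the counts in CD90- and 26.9% ± 12.8 in CD90+ libraries (SD, n = 5). It was higher in the CD90- library in 5 of 5 pools (exact paired permutation test, two-sided, p = 0.0625, the smallest p that 5 pools allow; adjusted p = 0.0938 over 3 library measures). The summed level of 9 fibroblast markers ran from 177 to 1468 CPM in CD90- and from 2024 to 2972 CPM in CD90+ libraries. The sum of 5 myofibroblast markers ran from 29.4 to 172 against 240 to 634 CPM. Both lists were thus lower in the CD90- fraction of every pool, although all cells had been sorted as myCAFs. In the fibroblast sum Fbn1, Col6a3 and Mmp2 weighed most, with means of 840, 638 and 392 CPM in CD90+ libraries. Col6a3 is also counted among the collagen genes below, and Dcn, another of the 9, among the substrates of Bmp1-type proteases. The sum of 12 epithelial or cancer cell markers was higher in the CD90- fraction of every pool, at 720 to 3044 against 180 to 1640 CPM. Acinar, leukocyte, Schwann cell and erythroid sums were at most 36.7 CPM in any library, and the Schwann cell marker Sox10 was at 0 in all of them. CD90- library 3 stood apart from the other CD90- libraries, with the highest fibroblast sum (1468 CPM), the lowest epithelial sum (720 CPM) and the lowest mitochondrial rRNA share (35.6%) of that group.

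All 10 genes were lower in CD90- than in CD90+ cells. Each was lower in the CD90- library in 5 of 5 pools, where 14.5% of all tested genes were. All 10 passed an adjusted p of 0.05 in edgeR's quasi-likelihood test with the pool as a block and Benjamini-Hochberg adjustment over all 15378 genes. In that fit 12.9% of all genes were called, 7.05% as lower and 5.83% as higher in CD90- cells. The median log2 fold of CD90- over CD90+ was -1.55 for the 10 genes and 0.04 for all tested genes. The smallest falls were those of P4ha1 and P4hb, to 62.4% and 62.2% of the CD90+ level. The fitted falls of Fkbp10 and P4ha3, to 20.1% and 22.4%, were the largest in this fit, and their order changed with no block for the pool (log2 folds of -1.65 and -2.17) and without pool 2 (-2.16 and -2.25) or pool 5 (-1.95 and -2.09). For 4 of the genes, P4ha2, P4ha3, Serpinh1 and Bmp1, every CD90- library lay below every CD90+ library, as it did for 4.62% of all tested genes. In such bulk samples, fewer cells that express a gene and less of its RNA per cell cannot be told apart, and the fibroblast and epithelial marker sums moved with the result in all 5 pools. Their part in it was not tested.

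**Figure D1:**
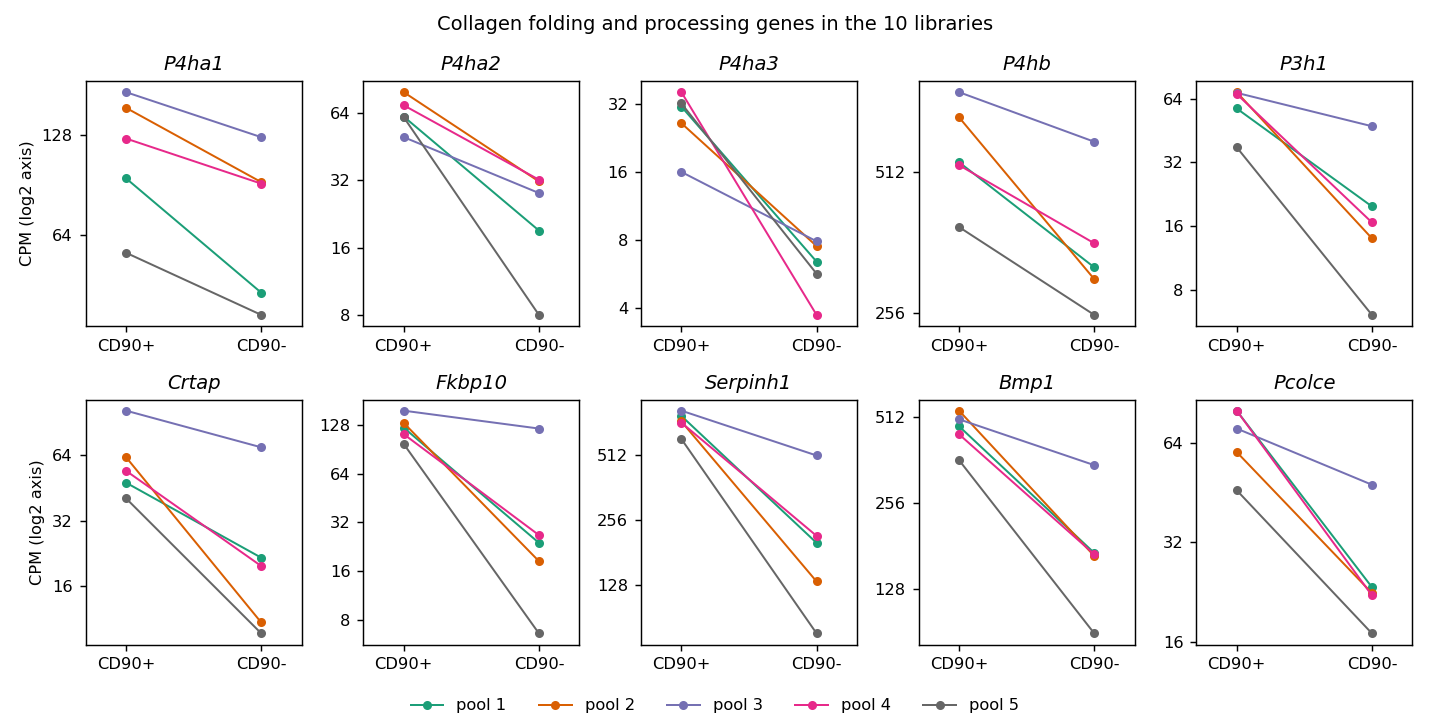
Level of each of the 10 genes in CPM (log2 axis) in the CD90+ and CD90- library of each tumour pool; 1 line joins the 2 libraries of a pool. All lines run downward to the CD90- side, and the line of pool 3 ends highest in CD90- for 9 of 10 genes.

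The 3 catalytic subunits of prolyl 4-hydroxylase fell by different amounts. P4ha1 (ENSMUSG00000019916, chromosome 10), the broadly expressed alpha subunit, stood at 43.0, 92.5, 126, 91.5 and 36.9 CPM in the CD90- libraries of pools 1 to 5 and at 94.9, 155, 172, 125 and 56.7 CPM in the CD90+ libraries. The groups overlapped: CD90- library 3 was above CD90+ libraries 1, 4 and 5, and CD90- libraries 2 and 4 were above CD90+ library 5. Each CD90- library was still below the CD90+ library of its own pool. Its log2 fold was -0.68 (SE 0.15, edgeR adjusted p = 0.0157). P4ha2 (ENSMUSG00000018906, chromosome 11), the alpha subunit known from cartilage and bone, stood at 19.1, 31.6, 28.0, 32.1 and 8.02 CPM in CD90- and 61.5, 79.0, 49.8, 69.0 and 61.1 CPM in CD90+ libraries. CD90- library 5 was the low one, and no library of one group reached the other. The log2 fold of P4ha2 was -1.55 (SE 0.28, adjusted p = 0.0085). P4ha3 (ENSMUSG00000051048, chromosome 7), the least abundant of the 3, stood at 6.44, 7.54, 7.92, 3.74 and 5.69 CPM against 31.3, 26.4, 16.1, 36.3 and 32.3 CPM. CD90+ library 3 was the lowest of its group and still more than every CD90- library, and the log2 fold was -2.16 (SE 0.31, adjusted p = 0.0038). The lowest estimated count behind these values was 35 reads, for P4ha3, against 577 for P4ha1.

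The promoters of the 3 genes are shown because the genes fell together by different amounts. Each is the RefSeq window from 250 bases before to 50 bases after the gene start, on build GRCm38.p6 and on the plus strand, given 5′ to 3′. Capitals mark ACGTG, the core of the hypoxia response element, and GGGCGG, the GC box bound by Sp1-type factors, each on either strand and with overlapping matches counted. The windows lie at chr10:59323046-59323345, chr11:54100674-54100973 and chr7:100285270-100285569.
P4ha1: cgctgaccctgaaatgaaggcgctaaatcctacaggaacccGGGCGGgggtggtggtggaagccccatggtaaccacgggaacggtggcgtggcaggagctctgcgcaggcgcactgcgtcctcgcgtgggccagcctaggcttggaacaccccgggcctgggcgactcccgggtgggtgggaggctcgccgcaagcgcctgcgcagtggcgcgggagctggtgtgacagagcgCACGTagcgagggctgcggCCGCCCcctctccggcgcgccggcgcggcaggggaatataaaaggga
P4ha2: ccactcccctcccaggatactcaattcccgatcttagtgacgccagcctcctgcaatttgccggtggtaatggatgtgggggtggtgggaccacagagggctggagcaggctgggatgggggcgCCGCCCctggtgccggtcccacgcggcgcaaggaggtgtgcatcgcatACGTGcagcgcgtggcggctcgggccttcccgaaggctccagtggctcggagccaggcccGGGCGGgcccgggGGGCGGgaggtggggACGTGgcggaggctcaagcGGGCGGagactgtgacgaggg
P4ha3: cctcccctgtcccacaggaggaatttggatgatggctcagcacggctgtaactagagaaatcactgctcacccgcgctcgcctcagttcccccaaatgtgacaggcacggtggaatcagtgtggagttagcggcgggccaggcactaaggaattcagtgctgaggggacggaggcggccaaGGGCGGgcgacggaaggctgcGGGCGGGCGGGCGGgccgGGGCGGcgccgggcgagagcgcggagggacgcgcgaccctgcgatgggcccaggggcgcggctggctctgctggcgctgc
P4ha1 held 1 ACGTG and 2 GGGCGG, P4ha2 held 2 and 4, and P4ha3 held none of the first and 5 of the second. RefSeq windows matched 8 of the 10 genes by symbol, with 9 windows, since P3h1 had more than 1. ACGTG was in a window of 5 of these 8 genes and in 19.6% of all 32851 promoter windows, GGGCGG in 8 of 8 and 35.7%, and CCAAT in 2 of 8 and 37.4%. A gene counted if any of its windows held the motif, whereas the percentages are of single windows. For P3h1, ACGTG was in 1 window and not in the other. These matches are letters in a window and no measure of binding.

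P4ha1 and P4ha2 each have a pair of exons of which a transcript carries at most 1. They are shown because a change in their use would alter the alpha subunit without altering the summed count. The exons lie, on GENCODE M21 and build GRCm38, plus strand, at exon 9 of P4ha1, where the upstream one is chr10:59354340-59354410 and the downstream one chr10:59355350-59355420, and at exon 13 of P4ha2, where they are chr11:54126238-54126297 and chr11:54126346-54126411. Of the annotated transcripts 1 carries the upstream and 2 the downstream exon of P4ha1, and 2 the upstream and 1 the downstream exon of P4ha2. P4ha1 has 3 transcripts and P4ha2 has 15, so the P4ha2 share below rests on only part of its transcripts.
P4ha1 upstream exon: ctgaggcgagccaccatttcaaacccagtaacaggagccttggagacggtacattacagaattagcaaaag
P4ha1 downstream exon: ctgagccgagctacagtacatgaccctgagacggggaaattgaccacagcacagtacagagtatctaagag
P4ha2 upstream exon: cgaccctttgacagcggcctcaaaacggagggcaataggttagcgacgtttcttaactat
P4ha2 downstream exon: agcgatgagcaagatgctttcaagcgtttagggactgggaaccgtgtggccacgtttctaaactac
By TPM (transcripts per 1000000, which corrects for transcript length), the upstream P4ha1 exon made up 26.5% ± 4.74 of the pair in CD90- and 25.8% ± 4.64 in CD90+ libraries (SD, n = 5; exact paired permutation p = 0.875, adjusted p = 0.938 over 2 shares). The downstream P4ha2 exon made up 36.4% ± 20.8 and 33.9% ± 20.4 of its pair (SD, n = 5; exact p = 0.938), with single libraries between 0% and 61.4%. Both differences were smaller than the spread between libraries. The main transcripts with either P4ha1 exon also differ in the length of their last exon, so Salmon's division of reads between them does not rest on the alternative exon alone.

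P4hb (ENSMUSG00000025130, chromosome 11), the beta subunit of prolyl 4-hydroxylase and a general disulphide isomerase, fell as little as P4ha1. It stood at 321, 303, 595, 361 and 254 CPM in CD90- and at 538, 671, 759.9, 530.5 and 391 CPM in CD90+ libraries. The groups overlapped because CD90- library 3 exceeded CD90+ libraries 1, 4 and 5. The log2 fold was -0.68 (SE 0.15, adjusted p = 0.0173), and the pools lay between -1.15 and -0.35.

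The prolyl 3-hydroxylation pair and Fkbp10 fell further. P3h1 (ENSMUSG00000028641, chromosome 4), the hydroxylase of the complex, stood at 19.8, 14.0, 47.4, 16.7 and 6.10 CPM in CD90- and 57.5, 68.7, 68.2, 67.3 and 37.7 CPM in CD90+ libraries, a log2 fold of -1.80 (SE 0.29, adjusted p = 0.0057). Only CD90- library 3 entered the CD90+ range. Crtap (ENSMUSG00000032431, chromosome 9), its partner that carries no hydroxylase activity, stood at 21.6, 10.9, 69.5, 19.8 and 9.68 CPM against 47.8, 62.6, 103, 54.2 and 40.5 CPM (log2 fold -1.54, SE 0.27, adjusted p = 0.0072). CD90- library 3 exceeded all CD90+ libraries but that of its own pool. Fkbp10 (ENSMUSG00000001555, chromosome 11), which encodes the isomerase FKBP65, stood at 23.9, 18.4, 121, 26.7 and 6.61 CPM against 123, 131, 156, 112 and 97.4 CPM. Its coefficient of variation was 118% among CD90- and 17.8% among CD90+ libraries, and CD90- library 3 lay within the CD90+ range. Its log2 fold was -2.31 with the largest SE of the 10 genes, 0.46 (adjusted p = 0.0159).

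Serpinh1 (ENSMUSG00000070436, chromosome 7), the procollagen chaperone, had the most uniform level among CD90+ libraries. It stood at 200.4, 133, 507, 216 and 76.7 CPM in CD90- and at 772, 728, 817, 719 and 604 CPM in CD90+ libraries. The groups did not overlap, although CD90- library 3 came near the lowest CD90+ library. The log2 fold was -1.97 (SE 0.30, adjusted p = 0.0058), and the coefficient of variation was 10.9% among CD90+ and 73.4% among CD90- libraries.

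The processing genes fell by similar amounts. Bmp1 (ENSMUSG00000022098, chromosome 14), the procollagen C-proteinase, stood at 171, 167, 348, 169 and 89.2 CPM in CD90- and 477, 541, 505, 447 and 362 CPM in CD90+ libraries, without overlap. Pcolce (ENSMUSG00000029718, chromosome 5), its enhancer, stood at 23.4, 22.5, 47.8, 22.1 and 17.0 CPM against 80.0, 60.0, 70.7, 80.1 and 46.0 CPM. CD90- library 3 alone exceeded a CD90+ library, that of pool 5. The log2 folds were -1.43 for Bmp1 (SE 0.21, adjusted p = 0.0038) and -1.41 for Pcolce (SE 0.20, adjusted p = 0.0038). Bmp1 encodes a shorter and a longer protease, but GENCODE M21 has 1 protein-coding Bmp1 transcript, so their shares were not analysed here. That transcript held 52.5% ± 4.35 of the Bmp1 counts in CD90- and 54.8% ± 7.01 in CD90+ libraries (SD, n = 5), and the rest fell on transcripts not annotated as coding.

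The size of the fall differed between pools. The median log2 difference of the 10 genes was -1.61, -1.75, -0.55, -1.60 and -2.29 in pools 1 to 5, and that of Col1a1, which encodes the main chain of type I collagen, was -2.73, -2.77, -0.55, -2.24 and -3.38. Pool 3 had the smallest fall for 10 of 10 genes, although for P4ha1 pool 4 was the same to 2 decimals. Pool 5 had the largest fall for 5 of them, reaching -3.88 for Fkbp10. CD90- library 3 was the highest CD90- library for 9 genes and CD90- library 5 the lowest for 9. The fibroblast marker sum had the same extremes, with 1468 CPM in CD90- library 3 and 177 CPM in CD90- library 5. The epithelial sum had the reverse, with 720 and 3044 CPM. The myofibroblast sum was highest in CD90- library 2 (172 CPM), with 91.1 CPM in library 3 and 29.4 CPM in library 5. The mitochondrial rRNA share was lowest in CD90- library 3 (35.6%) but highest in CD90- library 4 (84.4%). The part of these measures in the size of the fall was not tested. The log2 difference of Thy1 itself was -2.28 in pool 3 and -5.82 in pool 5. Without pool 3 all 10 genes remained called, and over all genes 2019 were called, against 1980 with all pools.

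**Figure D2:**
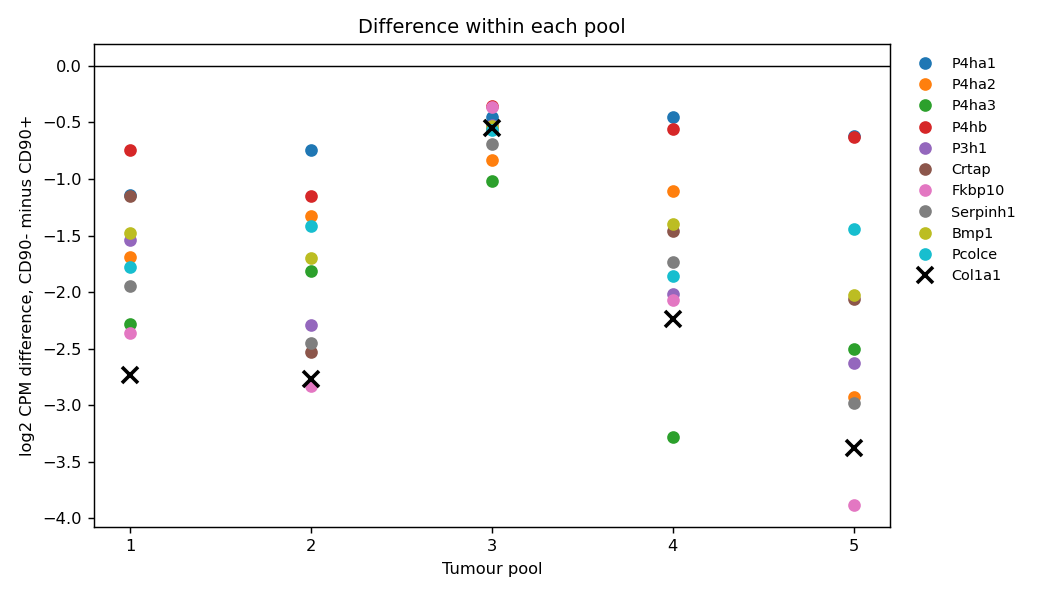
Difference in log2 CPM between the CD90- and the CD90+ library of each tumour pool, for the 10 genes (points) and Col1a1 (cross). All points lie below 0; in pool 3 the 10 genes and Col1a1 lie between -1.02 and -0.35, and in pool 5 they reach -3.88.

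The calls of 4 genes were lost with single pools left out, while their estimates stayed below 0. Without pool 1, 6 of the 10 genes were called, and P4ha1 (log2 fold -0.57, adjusted p = 0.0880), P4ha2 (-1.52, 0.0515), P4hb (-0.67, 0.0927) and Fkbp10 (-2.30, 0.0641) were not. Without pool 2, P4ha1 (-0.67, 0.0519) and P4hb (-0.57, 0.0697) were not called. Without pools 4 and 5 together, which hold the libraries of lowest nuclear depth, P4ha2 and P4ha3 were called. With no block for the pool, P4ha2, P4ha3, Serpinh1, Bmp1 and Pcolce were called. The calls over all genes dropped in the same fits. They numbered 1980 with all pools, 675 without pool 1 and 1252 without pool 2. Without pools 4 and 5 they numbered 541, and with no block 965. With mitochondrial rRNA content added to the model, edgeR called none of the 10 and 0 of 15378 genes (882 at an unadjusted p under 0.05), while the 10 log2 folds stayed below 0, between -2.93 and -0.61. That share was higher in the CD90- library of every pool, and its part in the falls cannot be told apart from that of the fraction.

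Relative to Col1a1, the main substrate, the question was whether folding and processing genes fell as far as the collagen they serve. Col1a1 stood at 4432 ± 2795 CPM in CD90- and 19701 ± 4167 CPM in CD90+ libraries (SD, n = 5), a log2 fold of -2.37 (SE 0.39, adjusted p = 0.0060). Taken per Col1a1 count, all 10 estimates were above 0, and P4ha1 and P4hb were called higher in CD90- libraries. In this fit 71.8% of all genes were called, 71.6% as higher and 0.13% as lower, because the scale moves with Col1a1 and shifted the median of all 15377 other genes to 2.37. The median of the 10 genes was 0.77, between that of all genes and Col1a1 at 0.

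P4ha1 amounted to 11.9, 31.8, 14.0, 19.2 and 20.3 counts per 1000 Col1a1 counts in CD90- and 3.94, 7.82, 13.0, 5.55 and 3.00 in CD90+ libraries. P4hb amounted to 88.7, 104, 65.8, 75.8 and 139.6 against 22.3, 33.9, 57.3, 23.6 and 20.7 counts. Both ratios were higher in the CD90- library of every pool, and CD90+ library 3 held the highest ratio of its group for each gene. The log2 fold of the ratio was 1.67 for P4ha1 (SE 0.58, edgeR adjusted p = 0.0066) and 1.66 for P4hb (SE 0.57, adjusted p = 0.0063). An exact paired permutation test over the 5 pools gave p = 0.0625 for either gene, the smallest it allows, and the same p for P3h1 and Bmp1, whose ratios were also higher in 5 of 5 pools. Each call was lost in single pools left out: neither gene was called without pool 5 (adjusted p of 0.0536 and 0.0561), P4ha1 not without pool 2 (0.0512) or pool 4 (0.0520), and P4hb not without pool 1 (0.0581).

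The other 8 genes were not called relative to Col1a1. Their log2 folds were 0.92 for Pcolce, 0.91 for Bmp1, 0.78 for Crtap, 0.76 for P4ha2, 0.53 for P3h1, 0.37 for Serpinh1, 0.17 for P4ha3 and 0.03 for Fkbp10, with SEs from 0.54 to 0.62. Serpinh1 amounted to 55.4, 45.7, 56.1, 45.3 and 42.2 counts per 1000 Col1a1 counts in CD90- and 32.1, 36.8, 61.6, 31.9 and 32.0 in CD90+ libraries. Its ratio thus stayed in a narrow band in CD90- libraries, and CD90+ library 3 was the highest of all 10. Fkbp10 had the ratio nearest to equal, at 7.12 ± 3.70 against 6.73 ± 2.91 counts per 1000 (SD, n = 5), higher in 3 pools and lower in the other two. In pool 3 the difference from Col1a1 was between -0.47 and 0.20 for all 10 genes. Without pool 3, P4ha2, Crtap, Bmp1 and Pcolce were also called higher (edgeR adjusted p of 0.0089, 0.0211, 0.00046 and 0.0067). With all pools 71.6% of all genes were called higher on this scale, and the share without pool 3 is not given here. A call as higher thus does not set these genes apart from most genes. Every ratio shares the Col1a1 count of its library, so the 10 results are not independent of each other.

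**Figure D3:**
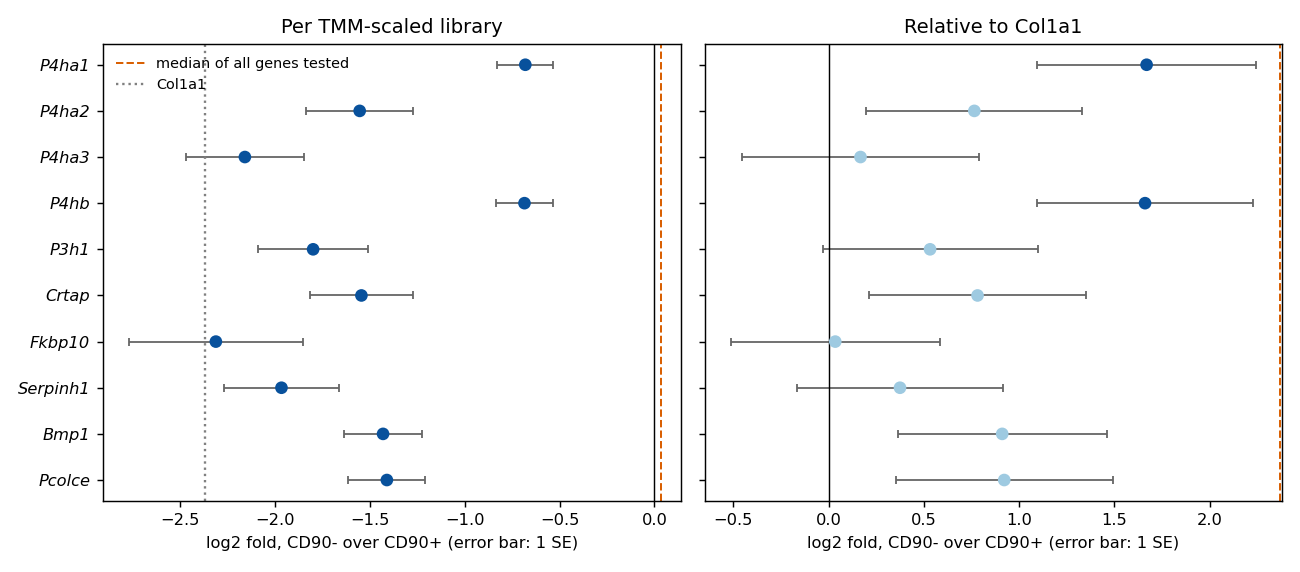
Log2 fold of CD90- over CD90+ with 1 SE for the 10 genes, per TMM-scaled library (left) and relative to Col1a1 (right); dark points passed an adjusted p of 0.05, the dashed line is the median of all genes tested and the dotted line is Col1a1. On the left all 10 points lie below 0, and on the right P4ha1 and P4hb, at 1.67 and 1.66, are the 2 dark points.

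The makeup of the alpha subunits leaned towards P4ha1 in CD90- libraries, within what 5 pools can show. Of the summed TPM of the 3 genes, P4ha1 held 49.0%, 62.2%, 69.3%, 51.5% and 53.9% in CD90- and 39.0%, 50.8%, 60.9%, 44.3% and 20.2% in CD90+ libraries. The share was higher in the CD90- library of 5 of 5 pools, with means of 57.2% ± 8.37 and 43.0% ± 15.2 (SD, n = 5; exact paired permutation p = 0.0625, adjusted p = 0.0938 over 3 shares). P4ha3 held 7.32% ± 3.34 against 13.2% ± 4.34 (SD, n = 5), and less in the CD90- library of 5 of 5 pools (exact p = 0.0625, adjusted p = 0.0938). P4ha2 held 35.5% ± 8.09 against 43.8% ± 11.9 (SD, n = 5; exact p = 0.188) and was higher in pool 4. By counts in place of TPM, P4ha2 held 22.0% against 30.9% and was lower in the CD90- library of every pool (exact p = 0.0625). Without pool 5 the difference in the P4ha1 share went from 14.1 to 9.27 percentage points and that in the P4ha2 share from -8.30 to -3.17. Since the shares add to 100%, they are not separate results, and no share could pass 0.05 with 5 pools.

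Per transcript length the order of the genes differed between the fractions at its top. These levels are TPM rescaled to nuclear protein-coding genes, so that mitochondrial RNA does not enter them. Serpinh1 led in CD90+ libraries at 1432 ± 197, followed by P4hb at 1093 ± 222, Bmp1 at 508 ± 75.8 and Fkbp10 at 312 ± 70.5 (SD, n = 5), each above the next in 5 of 5 libraries. Pcolce (219 ± 23.8), P4ha1 (199 ± 79.6), P4ha2 (198 ± 47.2), Crtap (172 ± 74.9) and P3h1 (134 ± 25.3) followed, neighbours whose order changed between libraries, and P4ha3 was lowest at 59.3 ± 17.5. In CD90- libraries P4hb led at 744 ± 229, then Serpinh1 at 480 ± 364 and Bmp1 at 221 ± 117, again each above the next in 5 of 5. P4ha1 (132 ± 62.9), Fkbp10 (109 ± 119), Pcolce (89.8 ± 40.4), Crtap (83.0 ± 74.6), P4ha2 (77.3 ± 28.0) and P3h1 (58.8 ± 39.1) could not be ordered beyond their spread, and P4ha3 was lowest in every library, at 14.6 ± 4.09.

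The ratio of Serpinh1 to P4hb separated the fractions; it and 3 further ratios between partners were chosen after their values were seen. Per length, Serpinh1 over P4hb was 0.644, 0.427, 0.974, 0.557 and 0.334 in CD90- and 1.38, 1.18, 1.20, 1.41 and 1.48 in CD90+ libraries. It lay below 1 in 5 of 5 CD90- and above 1 in 5 of 5 CD90+ libraries, and the log2 difference was -1.27 (SD 0.67, n = 5; exact paired permutation p = 0.0625, adjusted p = 0.125 over 4 ratios). The summed alpha subunits over P4hb gave geometric means of 0.294 against 0.424 and were lower in 5 of 5 pools (exact p = 0.0625, adjusted p = 0.125), but in 4 of 5 by counts. P3h1 over Crtap (0.777 against 0.819, exact p = 0.875) and Pcolce over Bmp1 (0.418 against 0.433, exact p = 0.75) differed by less than the spread between pools.

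**Figure D4:**
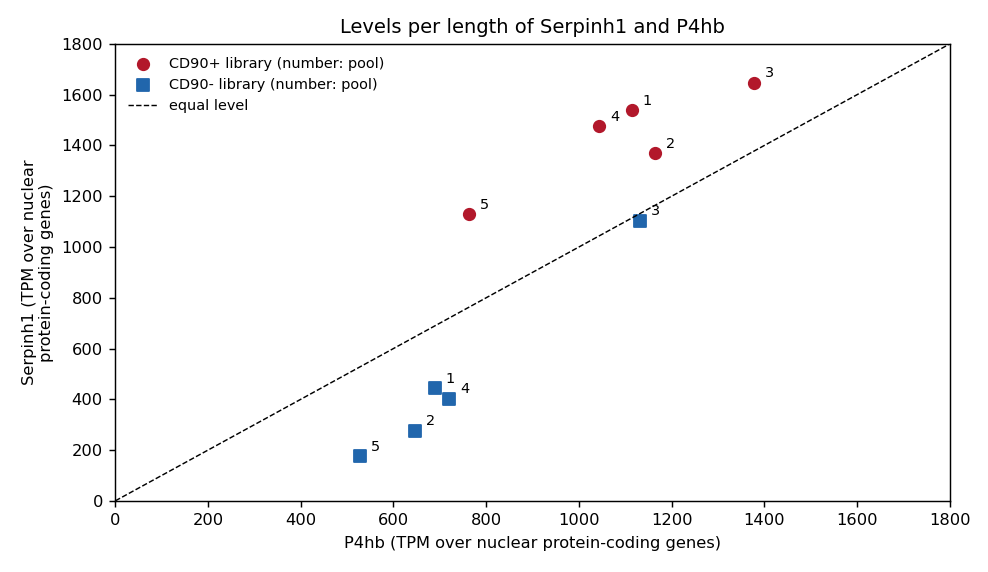
Serpinh1 against P4hb in TPM rescaled to nuclear protein-coding genes, 1 point per library numbered by pool; the dashed line marks equal levels. The 5 CD90+ libraries lie above the line and the 5 CD90- libraries below it, with CD90- library 3 closest to it at a ratio of 0.974.

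Across the 10 libraries the genes most like Serpinh1 and most like P4ha1 differed. Likeness was Pearson's r in log2 CPM (prior count of 2) over 10 libraries and 7005 genes whose log2 CPM averaged 3 or more, given as a description since all libraries share the contrast between fractions. Nearest to Serpinh1 were Sparc (0.996), Colec12 (0.994), Aldh1a2 (0.993), Dkk3 (0.993) and Fstl1 (0.990). Among the genes described here Fkbp10 (0.99), Bmp1 (0.99) and P3h1 (0.98) ranked 11th, 19th and 26th by likeness to Serpinh1, whereas P4ha1 had an r of 0.70. Among the nearest to P4ha1 were Slc16a3 (0.951), Appl1 (0.937), Ccl2 (0.935) and Rhoc (0.925), and of the genes described P4hb came closest, at 0.87.

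The collagen genes on the list used here were all called lower. Of its 13 collagen chain genes, 13 were lower, where 7.05% of all tested genes were. Their median log2 fold was -2.24, with a range from -2.90 to -1.50. The list does not hold every collagen gene. Col18a1, outside the list and named after its values were seen, was called higher in CD90- cells (log2 fold 1.25, SE 0.26, edgeR adjusted p = 0.0158). Col11a1, a fibrillar chain, stood at 12.3 ± 5.64 against 90.3 ± 35.3 CPM (SD, n = 5; log2 fold -2.90, adjusted p = 0.00021), and Col4a2, a basement membrane chain, at 268 ± 137 against 837 ± 349 CPM (log2 fold -1.65, adjusted p = 0.0026). Of 7 other collagen-modifying enzymes tested, 5 were lower and none higher (median -1.05): P3h3 and P3h4, from the family of P3h1, at -2.17 and -1.05, and the lysyl hydroxylases Plod1, Plod2 and Plod3 at -1.53, -1.45 and -0.59. P3h2, of the same family and named after its values were seen, was not called and had a positive estimate (log2 fold 2.75, SE 1.88, adjusted p = 0.405), at 1.14 ± 0.703 against 0.405 ± 0.598 CPM (SD, n = 5). Of 8 other collagen chaperones and isomerases, 6 were lower and none higher (median -0.98). They included Ppib, the cyclophilin that joins the complex of P3h1 and Crtap, at -0.58, the matrix protein Sparc at -2.23, and the isomerases Fkbp7, Fkbp9 and Fkbp14 at -2.31, -1.10 and -1.39.

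The genes of export and of extracellular processing moved less uniformly. Of 15 export genes, 6 were lower and 1 was higher (median -0.46). The coat components Sec24d, Sec13 and Sar1a had log2 folds of -1.05, -0.94 and -0.78 and the retrieval receptor Kdelr2 of -1.06, while Mia2, a cargo receptor of the export site, was higher in CD90- cells, at 107 ± 19.0 against 55.7 ± 5.93 CPM with SDs over 5 libraries (log2 fold 0.93, SE 0.14, adjusted p = 0.0044). Of 8 other propeptide processing genes, 3 were lower and 1 higher (median -0.52). The N-proteinases Adamts2 and Adamts3 had log2 folds of -2.28 and -1.06, and the proprotein convertase Pcsk5 of -1.83. Its relative Pcsk6 was higher in CD90- cells, at 25.8 ± 8.61 against 7.44 ± 2.90 CPM (SD, n = 5; log2 fold 1.82, adjusted p = 0.0056). Of 8 other substrates of Bmp1-type proteases, 4 were lower and 1 higher (median -2.07). The lysyl oxidases Lox and Loxl1, biglycan (Bgn) and fibronectin (Fn1) had log2 folds of -2.23, -2.37, -2.40 and -1.21.

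Of 16 general endoplasmic reticulum chaperones tested, 7 were lower, none was higher and 9 were not called (median -0.47). Among those called were Dnajb11 (-0.74), Dnajc3 (-0.84), Hsp90b1 (-0.73), Hspa5 (-0.53) and Manf (-0.59). Of 14 hypoxia response genes, which were listed because P4ha1 is a known hypoxia target, none was lower and 1, Ndrg1, was higher, at 159 ± 47.6 against 98.6 ± 36.5 CPM (SD, n = 5; log2 fold 0.70, adjusted p = 0.0156), and the list's median was 0.03. Beside these lists, 8 of 9 fibroblast markers were lower (median -2.29; Mmp2 at -2.48), 5 of 5 myofibroblast markers were lower (median -2.93), and 7 of 12 epithelial markers were higher (median 2.54; Krt18 at 2.04). The endothelial sum ran from 32.7 to 140 against 24.8 to 36.3 CPM, with 3 of 5 tested markers higher. It was higher in the CD90- library of 3 pools and lower in 2, and the 140 CPM came from CD90- library 2. The pericyte sum was also highest in that library (160 CPM). It ran from 12.0 to 160 against 48.5 to 81.2 CPM and was lower in the CD90- library of 4 pools. The mesothelial sum ran from 152 to 257 against 175 to 295 CPM. Without pool 1 the counts of lower genes dropped to 3 of the modifying enzymes, 2 of the other chaperones, 0 of the export genes, 1 of the Bmp1-type substrates, 0 of the general chaperones and 4 of the fibroblast markers, whereas 13 collagen genes were still called. Without pool 2 they were 4, 3, 2, 4, 2 and 5, without pool 4 they were 3, 4, 3, 5, 4 and 6, and without pool 5 they were 3, 3, 4, 4, 5 and 6. Without pools 4 and 5 together they were 1, 1, 0, 0, 1 and 4, and 10 of the 13 collagen genes were called. The hypoxia list kept 1 higher gene without pool 2 or pool 3. It had 0 without pool 1, 4 or 5, without pools 4 and 5 together, and with no block for the pool. Of the 12 epithelial markers, 5 to 9 were called higher with single pools left out and 0 with no block for the pool.

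**Figure D5:**
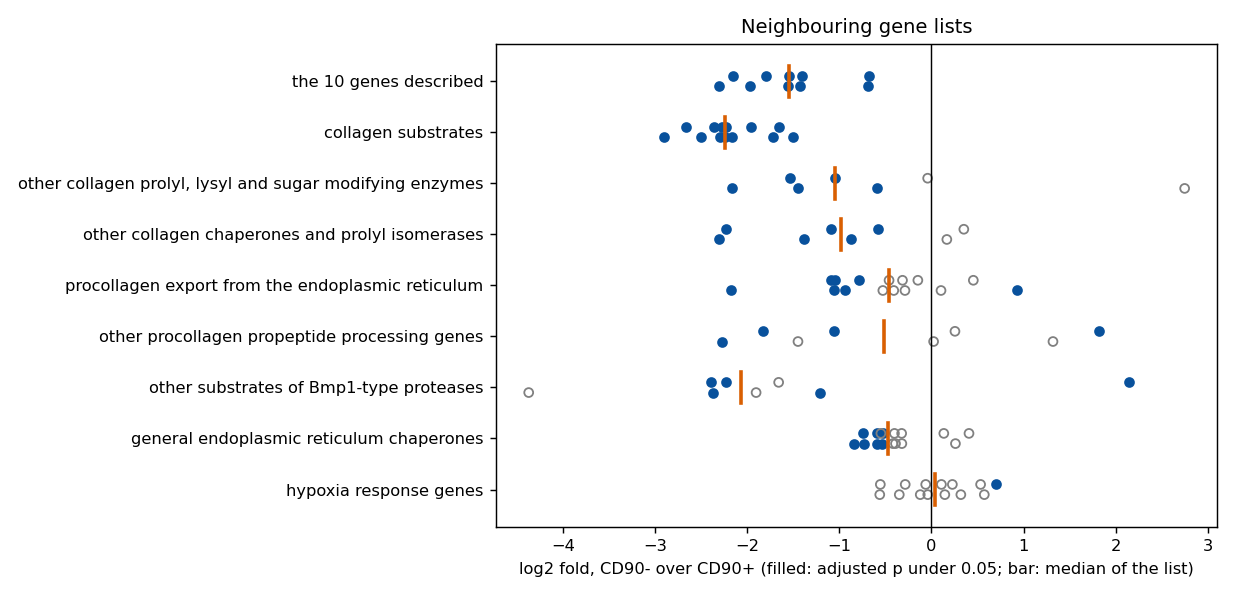
Log2 fold of CD90- over CD90+ for the 10 genes described and for 8 further lists, 1 point per tested gene; filled points passed an adjusted p of 0.05 and the bar is the median of the list. All filled points of the collagen, modifying enzyme and chaperone lists lie below 0, and Mia2, Pcsk6 and Ndrg1 are among the filled points above 0.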

How the data were processed

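Per the submitters' processing notes, transcripts were quantified with Salmon 1.9.0, and the builds named are GRCm39 and mm39; which annotation release and strand setting were used is not given in the sources used here. Per the labels, a stranded kit was used on RNA yields of 0.1 to 1.2 ng, with integrity numbers of 3.1 to 8.7. The cDNA went through 10 PCR cycles at low and 5 at high input, and 14 final PCR cycles followed. The labels used here do not say which library had which number of cDNA cycles. There were no molecular identifiers, so that counting error understates the error of each value. The authors deposited an estimated count, a TPM value and lengths for each transcript. Of 144584 transcripts, 133666 (92.4%) matched GENCODE M21 (build GRCm38), which gave gene names and exons. Printed coordinates are those of promoter windows and exons on GRCm38, not on the build of the deposited files. The unmatched 10918 carried 3.63% to 12.1% of a library's counts. Estimated counts were summed per gene and rounded to whole numbers.

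Differences were tested in edgeR 4.0.16 under R 4.3.3 (genes kept by filterByExpr, TMM, robust quasi-likelihood fit, pool as a block, Benjamini-Hochberg over all genes, threshold 0.05). Folds are CD90- over CD90+. The fit relative to Col1a1 used the log of its count as the offset. Shares and ratios used an exact paired sign-flip test, two-sided. The pairing comes from the animal numbers in the titles; deviations of paired libraries from their group means correlated by 0.06, 0.00, 0.46, 0.03 and 0.19. No library pair of a group agreed within sampling noise (39.3 to 1608 chi-square units per degree of freedom). On simulated counts of 15378 genes for the main comparison, 11 of 100 genes changed 2-fold and 59 of 100 changed 4-fold were recovered. Relative to Col1a1 (15377 genes), 3 and 38 were recovered. False calls of unchanged genes numbered 5 in the main comparison and 16 relative to Col1a1. Col1a1 was simulated with no difference between the fractions. The simulated numbers relative to Col1a1 therefore do not describe a scale that moves with Col1a1, as it did in these data. Genes outside the 10 were named by a rule: from each list at most 5 called genes in order of p, collagen genes used as a reference, Thy1, and the 5 nearest to Serpinh1 and to P4ha1. Some genes that this rule names are not reported here. The members and lists were chosen with earlier results of these data known. Alternatives were DESeq2 1.42.0, limma-voom (limma 3.58.1), a fit without the block, other size factors, no filter, coding genes only, a length offset, the mitochondrial rRNA share as a covariate, a threshold of 0.01, other collagen references, and pools left out.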

Additional observations from a re-analysis of the deposited data

Results flagged for a closer look

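CD90- library 3 lay far from the other 4 CD90- libraries for 3 genes. It held 69.5 CPM of Crtap, 121 CPM of Fkbp10 and 47.8 CPM of Pcolce, and the gap to the next library was 0.801, 0.825 and 0.791 of the whole range of the group. In all, 22 groups of 5 libraries were looked at (10 genes and Col1a1 in each fraction), and chance alone flags about 1 in 20. The same library had the highest fibroblast marker sum and the lowest epithelial marker sum of its group, 1468 and 720 CPM. Their part in the values was not tested.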

How the results depend on the processing

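The 10 genes kept their direction in all 150 values from 15 other settings, and 32 of these no longer passed the threshold. The setting with a threshold of 0.01 reuses the estimates of the main fit, so its directions could not differ. The number of the 10 called lower was 10 with other size factors, DESeq2, limma-voom, no filter, coding genes only and a length offset, 7 at a threshold of 0.01, 5 with no replicate block, 0 with mitochondrial rRNA content in the model, 6 to 10 with single pools left out and 2 without pools 4 and 5. Over all genes, 1980 (896 higher, 1084 lower) became 7.0e+02 (308, 396) at a threshold of 0.01, 965 (421, 544) with no replicate block, 0 with the rRNA covariate, 3452 (1638, 1814) with DESeq2 and 541 (357, 184) without pools 4 and 5. With single pools left out it ran from 675 to 2019 (308 to 820 higher, 367 to 1199 lower). Relative to Col1a1, 0 to 6 of the 10 genes were called with single pools left out and 0 without pools 4 and 5. With all pools 71.8% of all genes were called on that scale. The estimate of Fkbp10 was below 0 against Col1a2 (-0.036), against 5 fibrillar collagen genes (-0.022), and without pools 1, 3 and 4, with a range from -0.052 to 0.17 over single pools left out (-0.0026 without pool 3 and -0.00085 without pool 4). That of P4ha3 was below 0 without pools 2 and 5, with a range from -0.040 to 0.46 (-0.017 without pool 5). With no replicate block the differences in mitochondrial share (33.0 percentage points) and mitochondrial rRNA share (32.4) had an exact unpaired permutation p of 0.0159. The cause was not tested, except that fewer pools give fewer residual degrees of freedom. The planned share of long Bmp1 transcripts gave no value, since 1 coding transcript is annotated. Depth limits P4ha3 most, with 35 reads in its lowest library.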
